A study of Mus musculus with 12 samples.

Results

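The genes described here belong to the unfolded protein response and the integrated stress response, the programmes with which a cell answers misfolded protein in the endoplasmic reticulum (ER) and blocked translation. They come from a list of 38 mouse symbols drawn up by function, with earlier results of these data known, and all 38 had an entry among the 26305 entries with a gene identifier. In a model fitted to 11997 genes, 36 of the 38 passed the filter on low counts. Chac1 and Nupr1 did not. The list holds 6 stress transcription factors, 10 amino acid genes that the transcription factor ATF4 controls, 3 other genes of the integrated stress response, 4 genes of the ER stress sensors with Xbp1, 12 ER chaperones and folding factors, and 3 genes of ER-associated degradation.

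RNA was sequenced from EMRK1184luc, a single B cell lymphoma line from a female Eµ-Myc transgenic mouse. The Eµ-Myc transgene expresses Myc from the immunoglobulin heavy chain enhancer in B lineage cells, and the line also carries a lentiviral luciferase construct, so every sample shares both. Cultures received WM-1119 at 5 µM, which blocks KAT6A and KAT6B, enzymes that acetylate histones, or they received the vehicle DMSO. The 4 groups were WM-1119 for 3 days, DMSO for 3 days, WM-1119 for 6 days and DMSO for 6 days, with 3 replicate samples in each. The labels give no culture or day for a replicate, so the p-values reflect how these samples scatter, which may be technical.

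In the integrated stress response, kinases such as PERK phosphorylate the translation factor eIF2, which lowers general translation and favours translation of ATF4. ATF4, often paired with a C/EBP protein, then turns on genes for amino acid synthesis and uptake. In the unfolded protein response, the ER sensors IRE1, PERK and ATF6 act through spliced XBP1, ATF4 and cleaved ATF6 on chaperones and on the machinery that removes misfolded protein. B lineage cells depend on the XBP1 branch when they become antibody-secreting plasma cells. Counts of messenger RNA per gene show none of phosphorylation, splicing of Xbp1, cleavage of ATF6 or translation of ATF4.

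Library totals were 18327651 to 28228807 counts for WM-1119 at 3 days, 17928095 to 21712496 for DMSO at 3 days, 14736267 to 17563985 for WM-1119 at 6 days and 22831687 to 41749357 for DMSO at 6 days. Between 0.494% and 0.561% of each library fell on the members. A sum over 10 B cell markers was 5796 to 6153 CPM (counts scaled by library total and TMM factor) in the 6 WM-1119 libraries. It was 5441 to 5728 CPM in the 6 DMSO libraries, with no marker at 0 in all libraries. The markers went both ways. Cd79b was higher with WM-1119 (381 to 434 against 268 to 309 CPM). Ighm, the largest part, and Vpreb1 were also higher in every WM-1119 library than in any DMSO library, but barely. The lowest WM-1119 and the highest DMSO library had 2630 and 2625 CPM of Ighm, and 236.4 and 236.0 CPM of Vpreb1. Pax5 (83.9 to 93.2 against 115 to 137 CPM), Ebf1 (104 to 120 against 132 to 145 CPM) and Cd22 (171 to 204 against 231 to 272 CPM) were lower. Summed over 15 fibroblast markers it was 11.7 to 57.8 CPM with WM-1119 and 18.1 to 36.4 CPM with DMSO, with 1 marker at 0 in all WM-1119 libraries of 3 days and 1 in all of 6 days. The 8 T cell markers summed to 4.97 to 6.88 CPM with WM-1119 and 4.92 to 6.47 CPM with DMSO, with Cd3d, Cd3e, Cd4 and Cd8a at 0 in every library. The 8 myeloid markers summed to 108.6 to 114.6 CPM with WM-1119 and 116 to 122.8 CPM with DMSO at 3 days, and to 125 to 129.8 CPM with WM-1119 and 115.6 to 118.1 CPM with DMSO at 6 days. These sums did not overlap between treatments at either time and were mostly Itgam, while S100a8 and S100a9 were at 0 throughout; their part in the results was not tested. The fibroblast collagen Col1a1 passed 1 CPM in 5 libraries, at 1.88 CPM in WM-1119 at 3 days replicate 2, 6.83 and 12.9 CPM in WM-1119 at 6 days replicates 1 and 2, and 6.10 and 2.08 CPM in DMSO at 6 days replicates 1 and 2. These are 4 of the 6 libraries of 6 days, so counts at 6 days are given below with and without them. Fewer cells of a type and less RNA per cell cannot be told apart in such samples.

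More stress response genes were lower than higher with WM-1119. Among the called members the changes were largest for Atf3, then for Cebpb and Ern1, and most others were small. A gene is called here when its adjusted p is below 0.05 (edgeR quasi-likelihood test, two-sided, Benjamini-Hochberg over all 11997 genes). At 3 days 2 members were higher and 12 lower, which is 38.9% of the 36 tested, where 24.4% of all genes were called, 11.8% higher and 12.6% lower. At 6 days 5 members were higher and 18 lower, or 63.9%, where 30.8% of all genes were called, 15.7% higher and 15.1% lower. Averaged over both times, 2 were higher and 20 lower, or 61.1%, where 42% of all genes were called, 20.6% higher and 21.4% lower. With upper-quartile scaling the averaged split was 6 higher and 18 lower, because Calr, Dnajb11, Hspa5 and Xbp1 entered as higher and Slc3a2 and Herpud1 were lost. Without the 5 libraries above 1 CPM of Col1a1, 2 members were higher and 10 lower at 3 days, and 2 and 15 in the average. At 6 days 1 was then higher and 9 were lower. That leaves 1 library against 1 at 6 days, with the spread taken from the other groups. The calls lost at 6 days were Atf5, Mthfd2, Aldh18a1, Pycr1, Ppp1r15a, Eif2ak3, Xbp1, Hspa5, Calr, Dnajb9, Dnajc3, Manf, Herpud1 and Edem1, with adjusted p between 0.0611 and 0.915. Those lost at 3 days were Ppp1r15a and Manf (0.19 and 0.206). Of these values at 6 days, Aldh18a1 (-0.10), Xbp1 and Hspa5 also moved by more than 1.5 times.

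The median log2 fold change over the 36 tested members was -0.09 at 3 days and -0.18 at 6 days, beside 0.00 over all genes at both times. All 14 members called at 3 days were also called at 6 days in the same direction. They were Atf5 and Cebpb, which were higher, and Atf4, Atf3, Slc7a5, Aldh18a1, Pycr1, Ppp1r15a, Ern1, Eif2ak3, Atf6, Manf, Pdia6 and Edem1, which were lower. The sign was the same at both times for 31 of 36 members, 86.1%, and for 78.1% of all genes.

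**Figure D1:**
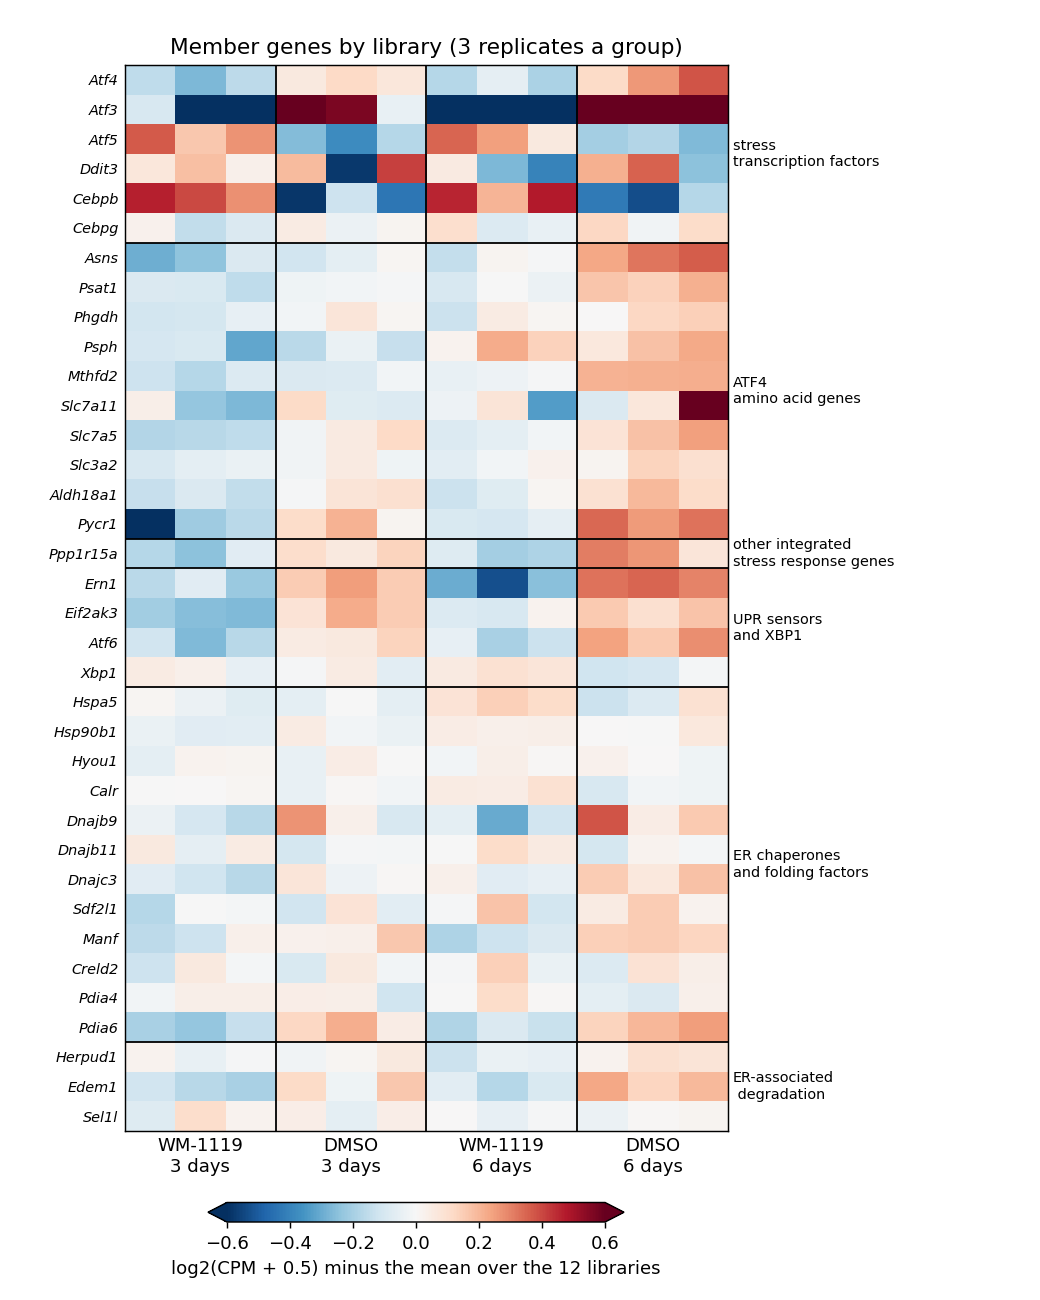
Each row is a tested member and each column a library, in the order WM-1119 and DMSO at 3 days, then WM-1119 and DMSO at 6 days, with 3 replicates a group. Colour is log2(CPM + 0.5) minus the gene's mean over the 12 libraries, and values beyond 0.6 take the end colour; Atf3, Ern1 and Atf4 are blue with WM-1119, Atf5 and Cebpb are red, and most ER chaperones are pale throughout.

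The stress transcription factors moved in both directions. Atf4 (Entrez 11911, chr15:80255184-80257545 on mm10) encodes the central activator of the integrated stress response. Its levels at 3 days were 168, 155 and 167 CPM with WM-1119, against 195, 203 and 196 CPM with DMSO. At 6 days they were 166, 180.0 and 164 CPM with WM-1119, against 202, 224 and 243 CPM with DMSO. At each time all WM-1119 libraries lay below all DMSO libraries. The log2 fold change was -0.28 ± 0.06 at 3 days (SE, edgeR adjusted p = 0.00117) and -0.39 ± 0.06 at 6 days (adjusted p = 2.02e-05), so the transcript was 1.21-fold and 1.31-fold lower.

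Atf3 (Entrez 11910, chr1:191170296-191183333), a stress-induced factor that ATF4 activates, had the largest fold change of the members tested and one of the lowest levels. It had 1.41, 0.733 and 0.630 CPM with WM-1119, against 2.97, 2.51 and 1.48 CPM with DMSO at 3 days. It had 0.599, 0.735 and 0.408 CPM with WM-1119, against 4.003, 3.68 and 3.45 CPM with DMSO at 6 days. The groups did not overlap at either time, though at 3 days the highest WM-1119 library and the lowest DMSO library lay close together. The log2 fold change was -1.38 ± 0.29 at 3 days (edgeR adjusted p = 0.00122) and -2.65 ± 0.31 at 6 days (adjusted p = 7.39e-07), which is 2.60-fold and 6.28-fold lower.

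Atf5 and Cebpb went the other way. Atf5 (Entrez 107503, chr7:44812256-44816658) encodes a factor related to ATF4 that takes part in mitochondrial stress signalling. It stood at 19.7, 17.1 and 18.4 CPM with WM-1119, against 12.6, 11.6 and 13.5 CPM with DMSO at 3 days. It stood at 19.5, 18.1 and 15.9 CPM with WM-1119, against 13.1, 13.4 and 12.6 CPM with DMSO at 6 days. No libraries overlapped between the treatments, and the log2 fold change was 0.55 ± 0.09 at 3 days (edgeR adjusted p = 0.000116) and 0.46 ± 0.09 at 6 days (adjusted p = 0.000565). Exons of Atf5 overlap Nup62 on the opposite strand, at 197.5 CPM over all libraries. Nup62 had log2 fold changes of -0.16 ± 0.04 and -0.07 ± 0.04, opposite in sign to Atf5.

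Cebpb (Entrez 12608, chr2:167688915-167690432) encodes C/EBPβ, a stress and inflammatory factor that can pair with ATF4. Its levels were 13.8, 13.1 and 12.02 CPM with WM-1119, against 6.41, 8.98 and 7.15 CPM with DMSO at 3 days. They were 13.7, 11.4 and 13.9 CPM with WM-1119, against 7.20, 6.65 and 8.69 CPM with DMSO at 6 days. Every WM-1119 library lay above every DMSO library of the same time. The log2 fold change was 0.79 ± 0.13 at 3 days (edgeR adjusted p = 7.53e-05) and 0.79 ± 0.13 at 6 days (adjusted p = 4.35e-05), or 1.73-fold higher at both times. Tmem189 overlaps Cebpb on the opposite strand at 49.9 CPM. It was not called, with log2 fold changes of -0.06 ± 0.06 at 3 days and -0.07 ± 0.06 at 6 days. The kit marks strand, but no source used here gives the strand setting of the counting.

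Ddit3 (Entrez 13198, chr10:127290793-127296291) encodes CHOP, which promotes death under prolonged stress. It had 4.06, 4.43 and 3.94 CPM with WM-1119, against 4.46, 2.41 and 5.28 CPM with DMSO at 3 days. It had 4.01, 3.11 and 2.79 CPM with WM-1119, against 4.54, 5.05 and 3.17 CPM with DMSO at 6 days. The groups overlapped at both times and the gene was not called. Its intervals were wide, at -0.44 to 0.54 on the log2 scale at 3 days and -0.87 to 0.14 at 6 days (95%), and its exons overlap those of Mars, at 164 CPM, on the opposite strand. Cebpg, which encodes a C/EBP partner of ATF4, was not called either, with log2 fold changes of -0.08 ± 0.06 and -0.08 ± 0.06.

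**Figure D2:**
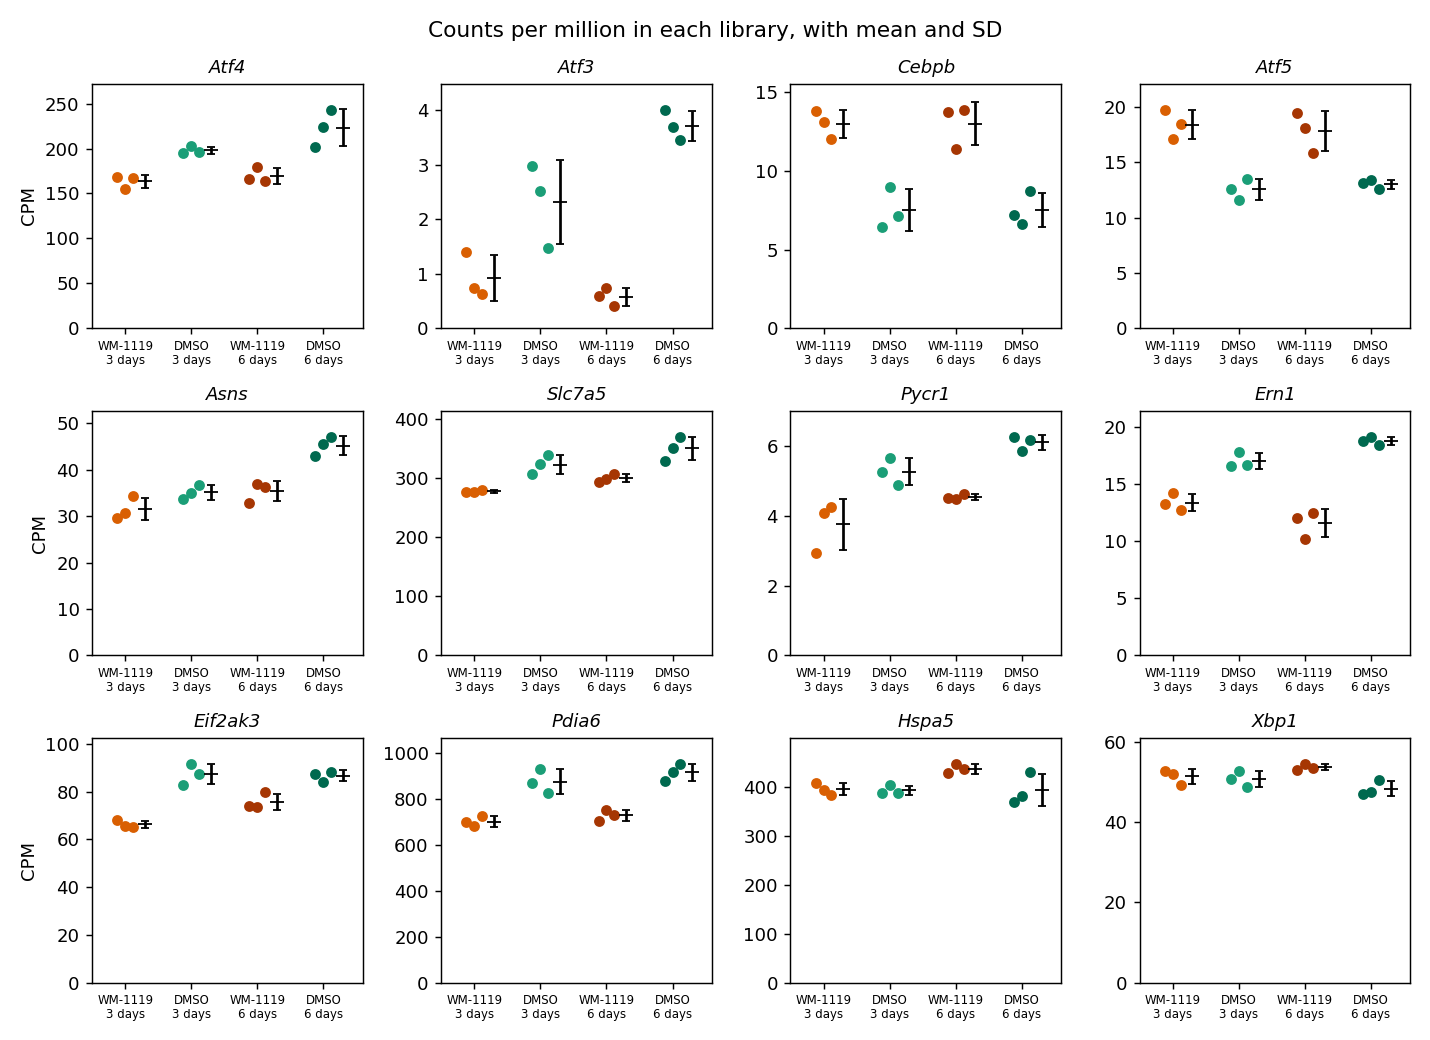
Points are CPM of single libraries for 12 members, in the order WM-1119 and DMSO at 3 days, then WM-1119 and DMSO at 6 days; the bar beside each group is its mean and SD (n = 3), and each vertical axis starts at 0. Atf4, Atf3, Pycr1, Slc7a5, Ern1, Eif2ak3 and Pdia6 lay lower in every WM-1119 library than in the DMSO libraries of the same time, Cebpb and Atf5 lay higher, and Hspa5 overlapped at both times.

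Of the other genes of the integrated stress response, Ppp1r15a was lower and the other two were near the limit of detection. Ppp1r15a (Entrez 17872, chr7:45522917-45526268) encodes GADD34, which directs a phosphatase to eIF2 and ends the response. It had 9.84, 9.32 and 10.6 CPM with WM-1119, against 12.03, 11.6 and 12.3 CPM with DMSO at 3 days. It had 10.5, 9.61 and 9.73 CPM with WM-1119, against 13.9, 13.5 and 11.7 CPM with DMSO at 6 days. The groups did not overlap, and the log2 fold change was -0.28 ± 0.10 (edgeR adjusted p = 0.041) at 3 days and -0.39 ± 0.10 (adjusted p = 0.00337) at 6 days. The call at 3 days was lost with DESeq2 (adjusted p = 0.0828), upper-quartile scaling (0.062), no filter (0.0767) and thinned depth (0.0868). It also ended when WM-1119 replicate 1 or 2 of 3 days, any DMSO replicate of 3 days or WM-1119 replicate 3 of 6 days was left out, with adjusted p between 0.0512 and 0.181. Chac1, which encodes an enzyme that breaks down glutathione, had raw counts of 3, 2 and 0 in the WM-1119 libraries and 7, 5 and 2 in the DMSO libraries at 3 days. At 6 days the WM-1119 libraries had 1, 4 and 1 and the DMSO libraries 36, 23 and 12. The groups did not overlap at 6 days, but the gene did not pass the filter on low counts and was not tested. Nupr1, a stress-induced chromatin protein gene, had counts in 2 DMSO libraries of 6 days alone, at 3 and 1.

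All 10 amino acid genes under ATF4 had negative fold changes at both times, most of them small. At 3 days 3 of the 10 were called lower, where 12.6% of all genes were, at 6 days 6, where 15.1% were, and averaged over both times 8, where 21.4% were, with none higher. In either direction, 24.4% of all genes were called at 3 days, near the 30% of these. Their median log2 fold change was -0.13 at 3 days, -0.22 at 6 days and -0.17 averaged. Because of how the members were chosen, these counts carry no test of the group.

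Asns (Entrez 27053, chr6:7675165-7693209) encodes asparagine synthetase, a classical ATF4 target, and the culture medium had added asparagine according to the labels. It had 29.6, 30.7 and 34.3 CPM with WM-1119, against 33.7, 34.96 and 36.8 CPM with DMSO at 3 days, where the ranges overlapped and the gene was not called (-0.15 ± 0.07, edgeR adjusted p = 0.112). Without WM-1119 replicate 3 of 3 days it was called, at -0.22 (adjusted p = 0.0468). Its 6-day levels were 32.9, 36.9 and 36.3 CPM with WM-1119, against 42.9, 45.6 and 47.1 CPM with DMSO. All WM-1119 libraries then lay below the DMSO libraries, at -0.35 ± 0.07 on the log2 scale (adjusted p = 0.00036).

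Of the serine and one-carbon genes, Psat1 and Mthfd2 were called at 6 days alone, and Phgdh and Psph at neither time. Psat1 (Entrez 107272, chr19:15905123-15925059), an aminotransferase of serine synthesis, had 232, 231 and 222 CPM with WM-1119, against 242, 244 and 246 CPM with DMSO at 3 days. Its 6-day levels were 231, 247 and 241 CPM with WM-1119, against 277, 271 and 286 CPM with DMSO. The groups were apart at both times, but the gene was called at 6 days alone (-0.22 ± 0.04, edgeR adjusted p = 0.000388, against -0.09 ± 0.04 and 0.112 at 3 days). Mthfd2 (Entrez 17768, chr6:83305704-83326011), a mitochondrial enzyme of one-carbon metabolism, had 121, 118 and 125 CPM with WM-1119, against 125, 125 and 131 CPM with DMSO at 3 days. The 6-day levels were 128, 129 and 132 CPM with WM-1119, against 153, 153 and 154 CPM with DMSO. The DMSO libraries stood clear of the WM-1119 libraries at 6 days (-0.24 ± 0.04, adjusted p = 0.000122), while the ranges overlapped slightly at 3 days (-0.07 ± 0.04, adjusted p = 0.296).

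Phgdh (Entrez 236539, chr3:98313171-98339969), which starts serine synthesis, had 224, 225 and 234 CPM with WM-1119, against 239, 255 and 244 CPM with DMSO at 3 days. At 6 days it had 221, 250.2 and 244 CPM with WM-1119, against 242, 264 and 267 CPM with DMSO, with overlapping ranges. It was called in the average over both times (-0.11 ± 0.04, edgeR adjusted p = 0.0164) and at neither time alone, and leaving out WM-1119 replicate 1 of 6 days ended that call (-0.09, adjusted p = 0.0518). With the replicate number as a block, Phgdh was called at 6 days (-0.11, adjusted p = 0.0455). Phgdh has a pseudogene, Phgdh-ps1, which may share reads with it. Psph, the phosphatase that completes serine synthesis, was not called, at -0.05 ± 0.07 and -0.03 ± 0.07.

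Of the 3 amino acid transporter genes, Slc7a5 was called lower at both times and Slc3a2 and Slc7a11 at neither. Slc7a5 (Entrez 20539, chr8:121881146-121907686) encodes LAT1, the light chain of a large neutral amino acid transporter. It had 276, 277 and 279 CPM with WM-1119, against 306, 323 and 338 CPM with DMSO at 3 days. It had 293, 298 and 307 CPM with WM-1119, against 329, 351 and 369 CPM with DMSO at 6 days. WM-1119 libraries lay below DMSO libraries at both times, at -0.22 ± 0.05 (edgeR adjusted p = 0.00146) and -0.22 ± 0.05 (adjusted p = 0.000879). Its heavy chain Slc3a2 was called in the average alone (-0.09 ± 0.03, adjusted p = 0.0375), and with the replicate block on the libraries of 6 days it was called at that time (-0.10, adjusted p = 0.0495). The averaged call of Slc3a2 ended when any of WM-1119 replicates 1, 2 and 3 and DMSO replicate 2 of 3 days, or WM-1119 replicate 1 and DMSO replicates 2 and 3 of 6 days, was left out, with adjusted p between 0.0503 and 0.0844. Slc7a11, the cystine and glutamate exchanger, was near 1 CPM and was not called, at -0.24 ± 0.35 and -0.53 ± 0.33. Its highest library, DMSO replicate 3 of 6 days, had 2.11 CPM, and the other 11 had 0.681 to 1.11 CPM. Without that library the value of Slc7a11 at 6 days was -0.08 (edgeR adjusted p = 0.871). It was -0.81 without DMSO replicate 1 of 6 days (0.0821), and -1.63 without the libraries above 1 CPM of Col1a1 (0.041).

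Aldh18a1 (Entrez 56454, chr19:40550257-40588463) encodes the first enzyme of proline synthesis. It had 144, 149 and 143 CPM with WM-1119, against 157, 167 and 169 CPM with DMSO at 3 days. It had 145, 150.4 and 159 CPM with WM-1119, against 168, 181 and 171 CPM with DMSO at 6 days. The groups did not overlap, and the log2 fold change was -0.18 ± 0.05 (edgeR adjusted p = 0.0079) at 3 days and -0.20 ± 0.05 (adjusted p = 0.00327) at 6 days. Pycr1 (Entrez 209027, chr11:120638998-120643748), the last enzyme of that pathway, was scarce, with 2.92, 4.08 and 4.25 CPM with WM-1119, against 5.25, 5.65 and 4.88 CPM with DMSO at 3 days. The 6-day values were 4.49, 4.47 and 4.63 CPM with WM-1119, against 6.25, 5.85 and 6.18 CPM with DMSO. Both times had the WM-1119 libraries below the DMSO libraries, at -0.48 ± 0.14 (adjusted p = 0.0183) and -0.43 ± 0.14 (adjusted p = 0.0223). The call of Pycr1 at 3 days ended without WM-1119 replicate 1 or DMSO replicate 2 of 3 days (adjusted p = 0.103 and 0.0692). The call at 6 days ended without any of the 3 WM-1119 replicates or DMSO replicate 1 of 6 days (adjusted p between 0.0519 and 0.0639).

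**Figure D3:**
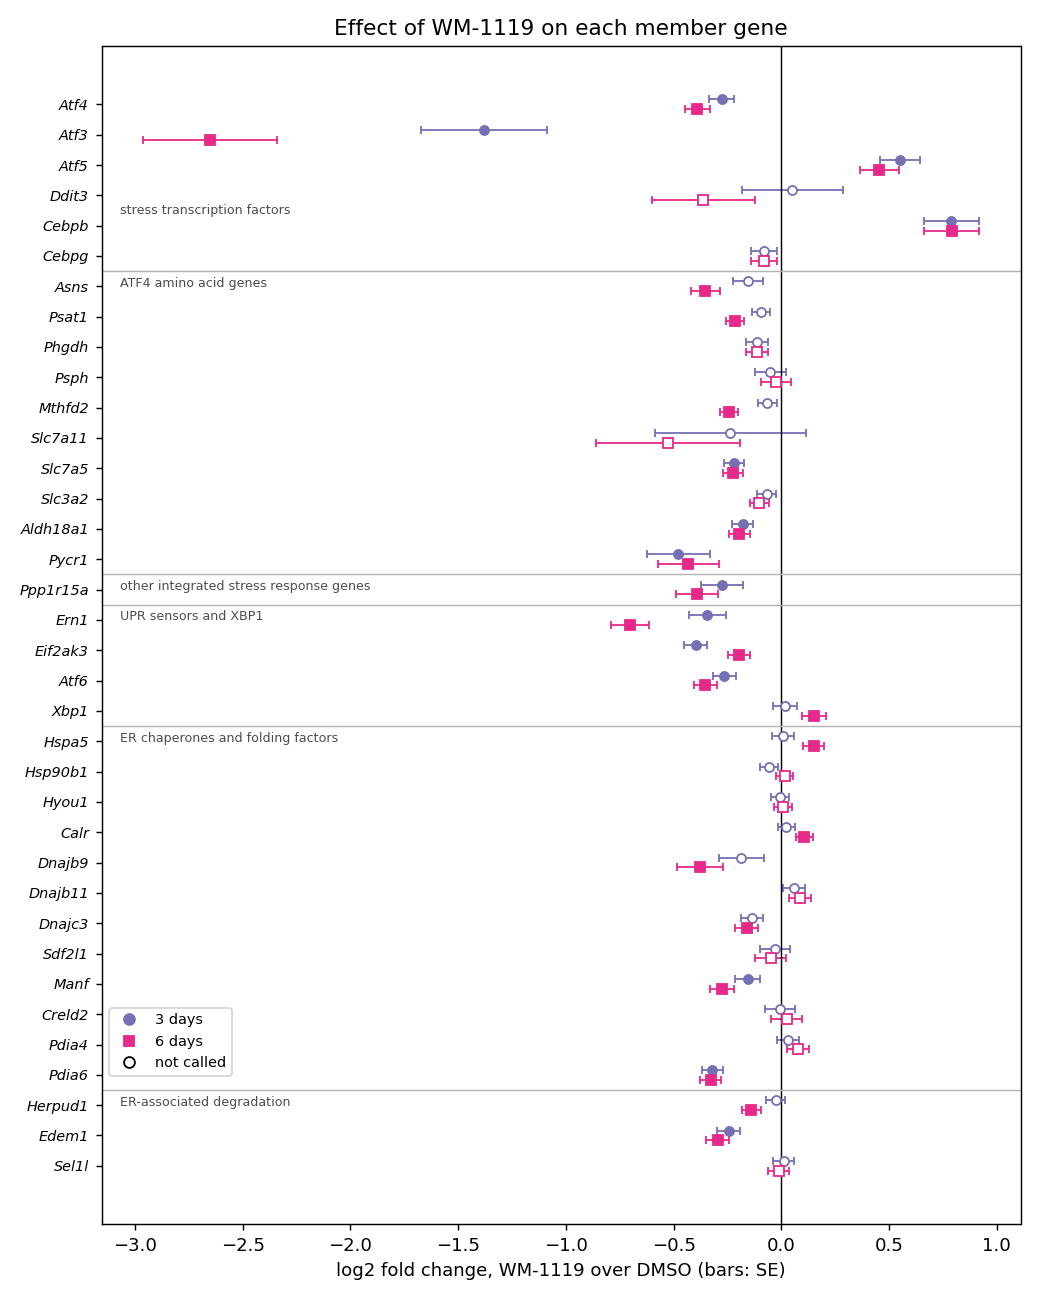
Points are log2 fold changes of WM-1119 over DMSO for the 36 tested members, with circles for 3 days and squares for 6 days, bars for SE, and open symbols for members not called. All 10 amino acid genes lie left of 0, the ER chaperones lie on both sides of it, and Atf3 lies farthest left, at -2.65 at 6 days.

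Stress elements were looked for in the promoters of the members. Windows of 300 bases, from 250 before to 50 after a transcription start, came from RefSeq annotation of GRCm38.p6, the same build as mm10, and 34 of the 38 members had a window. The core of the C/EBP-ATF response element, TGATGNAA on either strand, was in 3.97% of 32851 such windows. It was found in 7 members, namely Atf3, Asns, Pycr1, Slc7a11, Chac1, Nupr1 and Herpud1. That is 3 of the 9 amino acid genes with a window and 0 of the 10 chaperones with a window. Asns and Pycr1 are shown whole, 5′ to 3′ on the coding strand, because both were called lower and hold the core, which is in capitals.
Asns (chr6:7693160-7693459, minus strand): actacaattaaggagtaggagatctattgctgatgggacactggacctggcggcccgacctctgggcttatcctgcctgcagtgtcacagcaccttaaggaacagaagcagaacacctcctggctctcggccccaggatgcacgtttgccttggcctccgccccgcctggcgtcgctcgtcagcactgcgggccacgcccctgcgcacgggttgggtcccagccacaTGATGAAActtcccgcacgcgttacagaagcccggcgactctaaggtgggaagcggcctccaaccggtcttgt
Pycr1 (chr11:120643699-120643998, minus strand): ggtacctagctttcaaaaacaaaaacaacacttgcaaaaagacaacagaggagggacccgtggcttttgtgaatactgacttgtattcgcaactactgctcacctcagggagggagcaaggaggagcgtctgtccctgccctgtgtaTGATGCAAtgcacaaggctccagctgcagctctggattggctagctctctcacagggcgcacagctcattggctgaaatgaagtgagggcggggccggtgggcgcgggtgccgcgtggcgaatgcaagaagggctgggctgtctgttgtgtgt
For the other members with a match, 6 bases on each side are shown, read on the strand that carries the core.
Atf3: acttggTGATGCAAgtgcga
Slc7a11, upstream match: tgtggcTGATGCAAacctgg
Slc7a11, downstream match: gcatgaTGATGCAAattctc
Chac1: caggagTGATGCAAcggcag
Nupr1: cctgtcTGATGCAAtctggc
Herpud1: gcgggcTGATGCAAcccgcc
In the Asns window the core begins 23 bases before the start and reads TGATGAAA, while the matches of the other members read TGATGCAA. Of these genes, 4 were called lower in the average over both times, Slc7a11 was not called, and Chac1 and Nupr1 were not tested. In that average 21.4% of all genes and 20 of the 36 members tested were called lower. Whether the core goes with the call was not tested.

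The genes of the sensors themselves were lower with WM-1119, with the exception of Xbp1. Ern1 (Entrez 78943, chr11:106397620-106487796) encodes IRE1α, the sensor that splices Xbp1. It had 13.2, 14.2 and 12.7 CPM with WM-1119, against 16.6, 17.8 and 16.6 CPM with DMSO at 3 days. It had 12.04, 10.2 and 12.5 CPM with WM-1119, against 18.8, 19.1 and 18.4 CPM with DMSO at 6 days. The groups were well apart at both times, and the log2 fold change was -0.34 ± 0.09 (edgeR adjusted p = 0.00534) at 3 days and -0.70 ± 0.09 (adjusted p = 1.96e-06) at 6 days. After Atf3, this was the largest fall among the members called at 6 days, at 1.63-fold.

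Eif2ak3 (Entrez 13666, chr6:70844484-70905241) encodes PERK, the ER kinase of eIF2. It had 67.97, 65.7 and 65.3 CPM with WM-1119, against 82.998, 91.5 and 87.4 CPM with DMSO at 3 days. It had 74.04, 73.5 and 79.7 CPM with WM-1119, against 87.6, 84.05 and 88.4 CPM with DMSO at 6 days. WM-1119 libraries lay below DMSO libraries throughout, at -0.40 ± 0.05 (edgeR adjusted p = 5.41e-06) and -0.20 ± 0.05 (adjusted p = 0.00587). The mean level with WM-1119 was 66.3 ± 1.46 CPM at 3 days and 75.8 ± 3.43 CPM at 6 days (SD, n = 3), and with DMSO it was 87.3 ± 4.28 and 86.7 ± 2.31 CPM.

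Atf6 (Entrez 226641, chr1:170704457-170868585), the sensor that is cut to become a transcription factor, had 81.5, 73.4 and 78.7 CPM with WM-1119, against 91.5, 91.8 and 96.96 CPM with DMSO at 3 days. After 6 days it had 85.4, 77.1 and 80.7 CPM with WM-1119, against 105, 98.4 and 107 CPM with DMSO. No libraries overlapped, and the log2 fold change was -0.26 ± 0.05 (edgeR adjusted p = 0.000936) and -0.35 ± 0.05 (adjusted p = 2.95e-05). Xbp1 (Entrez 22433, chr11:5520641-5525993), whose spliced product drives plasma cell secretion, had 52.7, 52.004 and 49.3 CPM with WM-1119, against 50.8, 52.7 and 48.8 CPM with DMSO at 3 days, with overlapping ranges. After 6 days Xbp1 had 52.95, 54.4 and 53.6 CPM with WM-1119, against 46.9, 47.5 and 50.5 CPM with DMSO, and WM-1119 libraries lay above DMSO libraries. It was called at 6 days (0.15 ± 0.06, adjusted p = 0.0389), not at 3 days (0.02 ± 0.06, adjusted p = 0.868). The call of Xbp1 ended when any WM-1119 replicate or DMSO replicate 1 or 2 of 6 days was left out (adjusted p between 0.0879 and 0.14), and with DESeq2 (0.0572). Without the libraries above 1 CPM of Col1a1 the value of Xbp1 was 0.08 (adjusted p = 0.687). Summed over 8 plasma cell markers, of which Xbp1 and Mzb1 are a part, levels were 1273 to 1471 CPM with WM-1119 and 1241 to 1287 CPM with DMSO. These markers went both ways. Mzb1 had 809 to 1058 CPM with WM-1119 and 602 to 633 CPM with DMSO. Irf4 had 205 to 259 CPM with WM-1119 and 323 to 389 CPM with DMSO. Slamf7 (55.3 to 73.7 against 119 to 141 CPM) and Sdc1 (86.3 to 102 against 111 to 133 CPM) were lower with WM-1119 too. Among the markers Jchain, Prdm1 and Tnfrsf17 were below 1 CPM in every library. The part of the markers in the Xbp1 value was not tested.

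The ER chaperones were called in both directions, and their median was close to 0. Of 12 tested, 2 were called lower at 3 days and none higher, or 16.7%, beside 24.4% of all genes. At 6 days 4 were lower and 2 higher, or 50%, beside 30.8%. In the average 4 were lower and none higher, or 33.3%, beside 42%. Of all genes, 12.6% were called lower at 3 days, 15.1% at 6 days and 21.4% in the average. At 3 days the 16.7% of the chaperones called lower was near the share of all genes. It included Manf, whose call sat at the threshold (edgeR adjusted p = 0.0496). At 6 days and in the average, the 4 of 12 called lower were above the share of all genes. Higher calls were 11.8%, 15.7% and 20.6% of all genes. The median log2 fold change was -0.02 at 3 days, 0.01 at 6 days and -0.01 averaged. These signs depended on the setting. With upper-quartile scaling the median was 0.004 at 3 days and 0.008 averaged, and without WM-1119 replicate 1 or DMSO replicate 2 of 3 days it was 0.002 and 0.014 at 3 days. At 6 days it was -0.019 with thinned depth, -0.054 without the libraries above 1 CPM of Col1a1, -0.029 without WM-1119 replicate 2 and -0.011 without DMSO replicate 1. Hspa5 (Entrez 14828, chr2:34772090-34776529) encodes BiP, the main ER chaperone and a usual measure of ER stress. It had 408, 394 and 384 CPM with WM-1119, against 387, 404 and 387 CPM with DMSO at 3 days. It had 428, 446 and 436 CPM with WM-1119, against 369, 382 and 429.9 CPM with DMSO at 6 days. Ranges overlapped at both times, since DMSO replicate 3 of 6 days lay among the WM-1119 values. Hspa5 was called higher at 6 days (0.15 ± 0.05, edgeR adjusted p = 0.0253), not at 3 days (0.01 ± 0.05, adjusted p = 0.928). That call ended when any WM-1119 replicate or DMSO replicate 1 or 2 of 6 days was left out, with adjusted p between 0.0531 and 0.154. Without the libraries above 1 CPM of Col1a1, the value of Hspa5 was 0.02 (adjusted p = 0.915).

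Pdia6 (Entrez 71853, chr12:17266589-17284785), a disulfide isomerase and the most abundant member per length, was the chaperone with the smallest p. It had 698, 679 and 724 CPM with WM-1119, against 871, 929 and 824 CPM with DMSO at 3 days. It had 704, 753 and 728 CPM with WM-1119, against 876, 917 and 950.4 CPM with DMSO at 6 days. Every WM-1119 library lay below every DMSO library, and the log2 fold change was -0.32 ± 0.05 at 3 days (edgeR adjusted p = 3.01e-05) and -0.33 ± 0.05 at 6 days (adjusted p = 1.52e-05). Pdia4, another isomerase, was not called, at 0.03 ± 0.05 and 0.08 ± 0.05.

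Manf (Entrez 74840, chr9:106888753-106891938), a protein retained in the ER and secreted under stress, had 61.3, 62.7 and 69.7 CPM with WM-1119, against 69.7, 69.8 and 76.5 CPM with DMSO at 3 days, with 1 WM-1119 library level with the lowest DMSO libraries. After 6 days Manf had 59.96, 62.7 and 64.4 CPM with WM-1119, against 75.6, 76.02 and 74.8 CPM with DMSO, with no overlap. The log2 fold change was -0.16 ± 0.06 (edgeR adjusted p = 0.0496) and -0.28 ± 0.06 (adjusted p = 0.000735). The call of Manf at 3 days sat at the threshold and was lost with DESeq2 (adjusted p = 0.0708). In edgeR it was lost with RLE scaling (adjusted p = 0.0549), upper-quartile scaling (0.0843), no filter (0.0738) and the groups compared alone (0.0772). It also ended without any of 9 single libraries, with adjusted p between 0.0515 and 0.214. Those were WM-1119 replicates 1 and 2 and DMSO replicates 1 and 3 of 3 days, and all WM-1119 replicates and DMSO replicates 1 and 2 of 6 days. Exons of Manf overlap Rbm15b on the same strand, at 91.7 CPM, with log2 fold changes of -0.27 ± 0.07 and -0.15 ± 0.07. They also overlap Dcaf1 on the opposite strand, at 156 CPM, which had 0.18 ± 0.05 and 0.09 ± 0.05, opposite in sign to Manf.

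Of the J-domain co-chaperones of BiP, Dnajb9 and Dnajc3 were lower at 6 days and Dnajb11 was not called. Dnajb9 (Entrez 27362, chr12:44205897-44210068) had 15.9, 15.2 and 14.5 CPM with WM-1119, against 19.7, 16.7 and 15.2 CPM with DMSO at 3 days, with overlap. At 6 days it had 15.6, 13.1 and 15.04 CPM with WM-1119, against 21.3, 16.8 and 18.2 CPM with DMSO, with the groups apart (-0.38 ± 0.10, edgeR adjusted p = 0.00878). Its call ended without WM-1119 replicate 2 or DMSO replicate 1 of 6 days (adjusted p = 0.0506 and 0.0792). Dnajc3 (Entrez 100037258, chr14:118937932-118981702), which also restrains eIF2 kinases, had 76.7, 74.03 and 71.7 CPM with WM-1119, against 84.8, 78.8 and 81.01 CPM with DMSO at 3 days. The 6-day values were 82.3, 76.7 and 77.8 CPM with WM-1119, against 89.6, 84.05 and 90.97 CPM with DMSO. It was called at 6 days (-0.16 ± 0.05, adjusted p = 0.0211), not at 3 days (-0.14 ± 0.05, adjusted p = 0.058). Leaving out WM-1119 replicate 2 or 3, or DMSO replicate 1 or 3, of 6 days ended the call of Dnajc3 (adjusted p between 0.0624 and 0.0766). Dnajb11 had log2 fold changes of 0.06 ± 0.05 and 0.09 ± 0.05.

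Calr, the lectin chaperone calreticulin, was called higher at 6 days by a small margin (0.11 ± 0.04, edgeR adjusted p = 0.0436). Its values were 396, 394 and 408 CPM with WM-1119, against 358, 378 and 376 CPM with DMSO, without overlap. The call of Calr was lost without any single library of 6 days but DMSO replicate 3, and without WM-1119 replicate 2 or 3 or DMSO replicate 1 or 2 of 3 days, with adjusted p between 0.0507 and 0.188. Hsp90b1, Hyou1, Sdf2l1 and Creld2 were not called at either time. Their log2 fold changes at 3 and 6 days were -0.06 and 0.02 for the ER HSP90 chaperone Hsp90b1, -0.01 and 0.01 for Hyou1, which recharges BiP with nucleotide, -0.03 and -0.05 for Sdf2l1, and -0.01 and 0.02 for Creld2. The 95% interval at 6 days was -0.07 to 0.10 for Hsp90b1 and -0.08 to 0.10 for Hyou1.

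The ER stress response element (ERSE), bound by ATF6 with the factor NF-Y, reads CCAAT, any 9 bases, then CCACG on either strand. It was in 0.119% of the 32851 windows and in 6 members, all of them ER chaperones, out of the 10 chaperones with a window, and in 0 of the 9 amino acid genes. Its tail CCACG alone was in 32.8% of windows and in 29 members. A relative, ERSE-II (ATTGG, any base, CCACG), was in 0.0365% of windows and in Dnajb11 and Herpud1. The XBP1 element TGACGTGG was in 0.676% of windows and in 0 of the 34 members. Pdia6 and Dnajc3 are shown whole, on the coding strand, because they hold the ERSE (both ends in capitals) and were called lower.
Pdia6 (chr12:17266339-17266638, plus strand): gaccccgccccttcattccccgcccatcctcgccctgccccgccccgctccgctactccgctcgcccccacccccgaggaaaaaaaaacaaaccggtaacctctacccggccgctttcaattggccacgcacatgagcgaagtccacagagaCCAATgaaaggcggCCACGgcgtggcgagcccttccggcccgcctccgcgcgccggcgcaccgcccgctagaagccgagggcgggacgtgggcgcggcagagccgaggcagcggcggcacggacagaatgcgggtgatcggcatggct
Dnajc3 (chr14:118937682-118937981, plus strand): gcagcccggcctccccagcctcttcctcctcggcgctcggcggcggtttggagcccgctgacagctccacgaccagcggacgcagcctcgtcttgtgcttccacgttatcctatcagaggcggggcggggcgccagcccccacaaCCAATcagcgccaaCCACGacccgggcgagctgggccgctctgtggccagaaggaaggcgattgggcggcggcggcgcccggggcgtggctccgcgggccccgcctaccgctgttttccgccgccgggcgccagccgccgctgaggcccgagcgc
The other matches are the following, read on the strand that carries CCAAT or, for ERSE-II, ATTGG.
Hspa5, ERSE: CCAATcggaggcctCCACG
Hsp90b1, upstream ERSE: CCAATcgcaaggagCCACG
Hsp90b1, downstream ERSE: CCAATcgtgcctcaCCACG
Calr, ERSE: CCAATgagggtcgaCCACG
Creld2, ERSE: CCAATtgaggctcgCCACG
Dnajb11, ERSE-II: ATTGGcCCACG
Herpud1, ERSE-II: ATTGGgCCACG
Of the 6 members with an ERSE, Pdia6 and Dnajc3 were called lower in the average over both times and Hspa5, Hsp90b1, Calr and Creld2 were not called. In that average 21.4% of all genes and 4 of the 12 chaperones were called lower. A match describes the letters of a window and not binding.

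**Figure D4:**
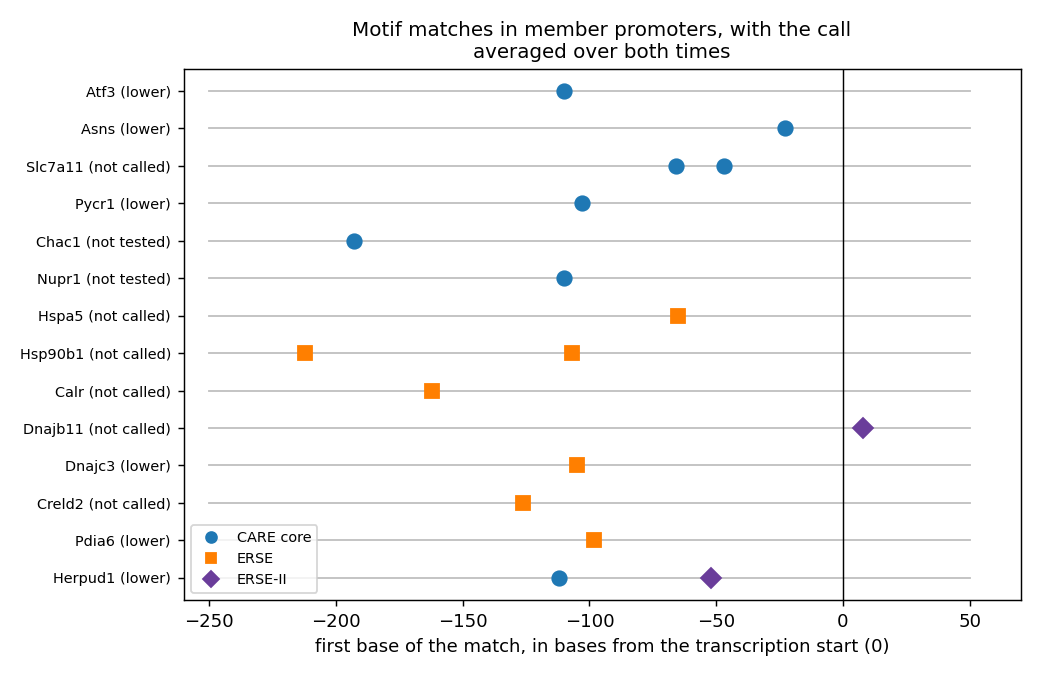
Each line is the promoter window of a member with a match, from 250 bases before to 50 bases after the transcription start at 0, and each symbol is the first base of a match (circles for the C/EBP-ATF core, squares for ERSE, diamonds for ERSE-II). Names carry the call averaged over both times; the squares lie in chaperones, called lower or not called, and the circles in ATF4 targets and Herpud1.

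In ER-associated degradation, Edem1 and Herpud1 were lower and Sel1l was not called. Edem1 (Entrez 192193, chr6:108824045-108859356), which passes misfolded glycoproteins to disposal, had 89.6, 86.3 and 84.6 CPM with WM-1119, against 105, 95.2 and 109 CPM with DMSO at 3 days. It had 92.8, 86.1 and 90.9 CPM with WM-1119, against 114, 106 and 111 CPM with DMSO at 6 days. The groups did not overlap, at -0.24 ± 0.05 (edgeR adjusted p = 0.00162) and -0.30 ± 0.05 (adjusted p = 0.000175). Herpud1, a scaffold of the ubiquitin ligase complex in the ER membrane, was called at 6 days (-0.14 ± 0.04, adjusted p = 0.0196), not at 3 days (-0.03 ± 0.04). Its call ended without WM-1119 replicate 1 or DMSO replicate 2 of 6 days (adjusted p = 0.0757 and 0.0712). Its averaged call (-0.08 ± 0.03, adjusted p = 0.0391) ended without WM-1119 replicate 2 or 3 or DMSO replicate 3 of 3 days, or WM-1119 replicate 1 or 3 or DMSO replicate 2 or 3 of 6 days (adjusted p between 0.054 and 0.0971). Sel1l, the adaptor of that ligase, had log2 fold changes of 0.01 ± 0.05 and -0.01 ± 0.05.

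Set side by side, the amino acid genes were below their DMSO level and the chaperones were close to it. In the average over both times, 8 of 10 amino acid genes were called lower, where 21.4% of all genes were, and 4 of 12 chaperones. The mean of log2(CPM + 0.5) over the 10 amino acid genes, each centred on its own mean, was -0.17, -0.15 and -0.15 with WM-1119 at 3 days, against -0.02, 0.02 and -0.0013 with DMSO. After 6 days the mean was -0.08, 0.01 and -0.03 with WM-1119, against 0.11, 0.18 and 0.28 with DMSO. At each time the WM-1119 libraries lay below the DMSO libraries. For the 12 chaperones the mean was -0.07, -0.05 and -0.04 with WM-1119 at 3 days, against 0.01, 0.04 and -0.02 with DMSO. After 6 days the mean was -0.02, 0.02 and -0.02 with WM-1119, against 0.03, 0.04 and 0.07 with DMSO. The WM-1119 libraries lay below the DMSO libraries at each time for the chaperones too, by a smaller distance. These means are a description with no test.

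**Figure D5:**
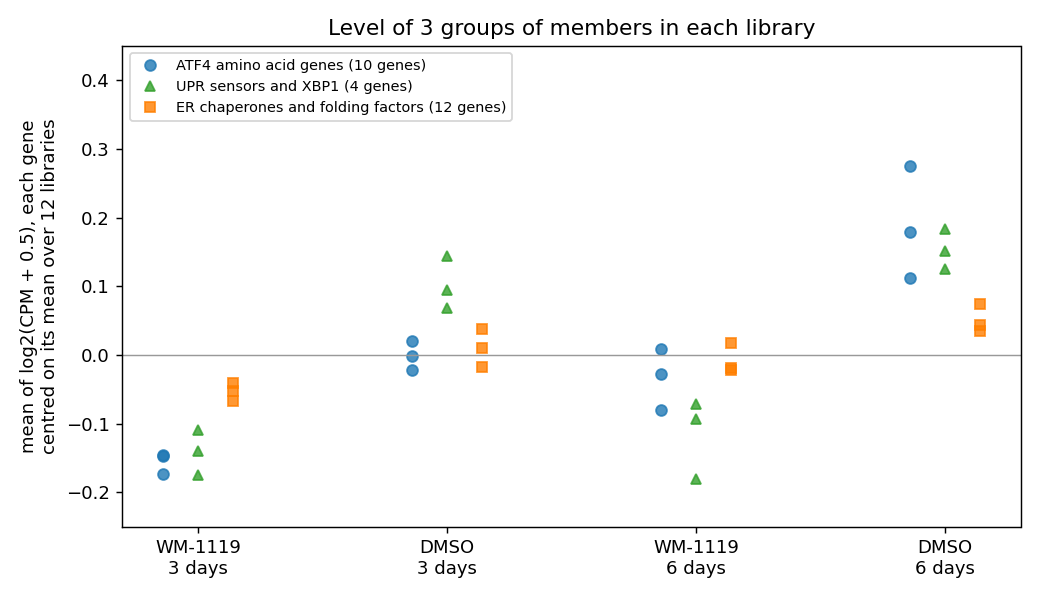
Points are libraries, in the order WM-1119 and DMSO at 3 days, then WM-1119 and DMSO at 6 days; the vertical axis is the mean over a group's genes of log2(CPM + 0.5), each gene centred on its mean over the 12 libraries. The amino acid genes (circles) lie highest with DMSO at 6 days, from 0.11 to 0.28, while the chaperones (squares) stay between -0.07 and 0.07 in all libraries.

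The level of the amino acid genes also differed between the DMSO cultures of 6 and 3 days. All 10 had a positive log2 fold change of 6 over 3 days, with a median of 0.20, beside 0.02 for the 12 chaperones and 0.00 for all genes. Without DMSO replicate 3 of 6 days the median of the 10 was 0.13. Among the members 3 were called higher and none lower, or 8.33%, where 0.809% of all genes were called, 0.358% higher and 0.45% lower. With upper-quartile scaling 43 of all genes were higher and 95 lower, in place of 43 and 54. The 3 were Asns (0.36 ± 0.07, edgeR adjusted p = 0.00759), Psat1 (0.19 ± 0.04, adjusted p = 0.0303) and Mthfd2 (0.28 ± 0.04, adjusted p = 0.00123). Asns averaged 45.2 ± 2.10 CPM at 6 days and 35.1 ± 1.56 CPM at 3 days in DMSO (SD, n = 3). Leaving out DMSO replicate 1 of 3 days left Mthfd2 alone, while leaving out DMSO replicate 1 of 6 days gave 5 members, with Atf4 and Psph added. Psat1 also lost its call without DMSO replicate 2 or 3 of 3 days or DMSO replicate 3 of 6 days (adjusted p between 0.0601 and 0.116). This comparison and the effect of WM-1119 at 6 days share the 3 DMSO libraries of 6 days, and it shares those of 3 days with the effect at 3 days.

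No member was called for a difference between the effects at 6 and 3 days. Of all genes 0.725% were called for it, 0.4% with a more positive and 0.325% with a more negative effect at 6 days. Among the members 4 had an unadjusted p below 0.05 by edgeR, beside 8.22% of all genes, and DESeq2 and limma voom called 0 as well. These were Atf3, Mthfd2 and Ern1, with a more negative effect at 6 days by -1.27 ± 0.46, -0.18 ± 0.06 and -0.36 ± 0.12 on the log2 scale, and Eif2ak3, with a less negative one by 0.20 ± 0.07. The smallest edgeR adjusted p was 0.324, for Mthfd2.

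Levels per length put some of the chaperones at the top and others far down the list. As RPKM (CPM per kilobase of gene length, with the lengths of the deposited table, mean of 12 libraries), Pdia6 had 379, Hsp90b1 221, Calr 197 and Hspa5 155. The amino acid gene Phgdh followed with 129.6 RPKM and Atf4 with 109 RPKM. Asns had 19.1 RPKM, and the chaperones Dnajc3 and Dnajb9 had 15.55 and 8.82 RPKM. Cebpb had 6.82 RPKM, Ddit3 4.52 RPKM and Ern1 3.82 RPKM. At the low end were Atf3 with 0.953, Chac1 with 0.194, Slc7a11 with 0.111 and Nupr1 with 0.0231 RPKM.

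Beyond the members, lists of other genes of the same pathways held 147 genes, of which 140 were tested. Of these 17 were called higher and 44 lower in the average over both times, or 43.6%, near the 42% of all genes. All genes split into 20.6% higher and 21.4% lower, so the calls of the 140 leaned more to lower. Among 16 tested further targets of ATF4, 1 was higher and 9 lower, or 62.5%. At 3 days 2 were higher and 4 lower, or 37.5%, beside 24.4% of all genes. The averaged log2 fold changes of the 16 ran from -1.69 to 1.09, with a median of -0.255, and those named here went down. Slc1a4, a neutral amino acid transporter, averaged 5.01 ± 0.394 CPM with WM-1119 and 16.1 ± 0.712 CPM with DMSO at 6 days (SD, n = 3). Its log2 fold change was -0.86 ± 0.10 at 3 days and -1.68 ± 0.11 at 6 days (edgeR adjusted p = 8.92e-07 and 5.28e-11). Sesn2, a stress-induced inhibitor of mTORC1, was lower at both times (-0.83 ± 0.12 and -0.64 ± 0.12), as was the aspartate aminotransferase Got1 (-0.26 ± 0.04 and -0.33 ± 0.04). Of 20 cytosolic aminoacyl-tRNA synthetases, which ATF4 also controls in part, 2 were higher and 9 lower, or 55%. Gars1 was lower at both times (-0.30 ± 0.04 and -0.33 ± 0.04), and Cars1 was called at 6 days (-0.45 ± 0.05) but not at 3 days (-0.10 ± 0.05).

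Of 23 further ER folding factors, 5 were higher and 4 lower in the average, or 39.1%, near the 42% of all genes. Their averaged log2 fold changes ran from -0.56 to 0.56, with a median of 0.003, and those named here went up. Mzb1, an ER protein that helps assemble IgM in B cells, was higher at both times (0.47 ± 0.05 and 0.65 ± 0.05, edgeR adjusted p = 4.95e-07 and 1.83e-09). It averaged 967 ± 80.5 CPM with WM-1119 and 616 ± 14.5 CPM with DMSO at 6 days (SD, n = 3). Pdia3, the isomerase that works with calreticulin, was higher as well (0.22 ± 0.04 and 0.39 ± 0.04), unlike its relative Pdia6 among the members. Of 13 genes for the processing and partners of ATF6 and XBP1, 3 were higher and 3 lower, or 46.2%, also near it. Bhlha15, which encodes the secretory cell factor MIST1, was higher at both times (0.68 ± 0.10 and 0.88 ± 0.11), and Creb3l2 was lower at 6 days (-1.53 ± 0.31).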

How the data were processed

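RNA was measured in 12 libraries of 4 groups of 3. The deposited table holds raw counts per gene, which the authors made with featureCounts on the mouse build mm10, per the submitters' processing notes. For the aligner, strand setting and treatment of reads shared by several genes, details are not given in the sources used. Entries without a gene identifier (874 of 27179, with 0.305% to 0.362% of a library's counts) were left out, and 25275 of 26305 identifiers had a symbol. RefSeq annotation of that build gave symbols and gene positions. The gene length column of the deposited table, also the authors', served for RPKM alone.

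Genes were filtered with filterByExpr, scaled with TMM factors (0.98 to 1.02) and fitted in 1 robust quasi-likelihood model with 4 group means (edgeR 4.0.16, R 4.3.3), checked on simulated data. Biological variation (common coefficient) was 5.69%, and the lowest correlation of log2 CPM between libraries of a group was 0.995. Contrasts were the effect at 3 days, at 6 days, their average, their difference, and DMSO at 6 against 3 days. CPM are scaled by TMM, and fold changes are model estimates. An exact permutation of 3 against 3 libraries cannot give a p below 0.1. Same-numbered libraries deviated together at 6 days (correlations of deviations from the group means 0.19 to 0.21) but not at 3 days (-0.02 to 0.05), so blocked values are given where they change a call. In all 23 alternatives were run, among them DESeq2 1.42.0, limma voom 3.58.1, other scaling, other filters, thinned depth and each library left out. Values by library are given for the 20 called members with the smallest averaged p, and for Hspa5, Xbp1 and Ddit3. The other members are described by fold changes, and of each pathway list up to 3 genes with the smallest averaged p are named. The members and lists were chosen with earlier results of these data known.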

Additional observations from a re-analysis of the deposited data

How the results depend on the processing

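Across 23 alternatives (scaling, filter, test, block, depth and 12 fits without 1 library each) no called member changed sign in any comparison. Calls held in every alternative run for 11 of 14 members at 3 days, 9 of 23 at 6 days, 16 of 22 in the average and 1 of 3 in DMSO at 6 against 3 days. The 9 at 6 days were Atf4, Atf3, Cebpb, Asns, Psat1, Slc7a5, Ern1, Atf6 and Pdia6. Without the libraries above 1 CPM of Col1a1, 10 members were called at 6 days in place of 23, on 1 library against 1, and 5 in DMSO at 6 against 3 days in place of 3. Leaving out 1 library each gave 11 to 15 members at 3 days, 18 to 24 at 6 days, 20 to 23 in the average, 1 to 5 in DMSO and 0 for the difference between times. For all genes, leaving out those Col1a1 libraries gave 1516 calls at 6 days in place of 3693, 3312 in the average in place of 5035, 5 for the difference in place of 87 and 537 in DMSO in place of 97. Single libraries left out gave 46 (without WM-1119 3 days replicate 3) to 217 (without DMSO 6 days replicate 3) calls for the difference and 41 to 158 in DMSO. The DMSO count was 173 without a filter, 171 with DESeq2, 47 with the groups compared alone and 167 with the replicate block. The replicate block called 15 members at 3 days (Dnajc3 added, adjusted p = 0.0368), 24 at 6 days (25 with the libraries of 6 days alone), 22 in the average and 4 in DMSO (Psph added, 0.041); it ended no call of a member. The cause of these shifts was not tested. Depth limits Atf3, Ddit3, Slc7a11, Chac1 and Nupr1, the members with the fewest counts.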

Other observations

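Genes for protein entry into the ER were called about as often as all genes, but with more of the calls lower. Of 29 tested genes of translocation, signal peptidase and N-glycan transfer, 2 were called higher and 10 lower in the average over both times. That is 41.4%, where 42% of all genes were called, 20.6% higher and 21.4% lower. The median log2 fold change of the 29 was -0.09. Sec11a, a catalytic subunit of signal peptidase, averaged 57.1 ± 3.49 CPM with WM-1119 and 70.5 ± 1.33 CPM with DMSO at 6 days (SD, n = 3). Its log2 fold change was -0.30 ± 0.06 at 3 days and -0.30 ± 0.06 at 6 days (edgeR adjusted p = 0.000434 and 0.000229). Stt3b, a catalytic subunit of the oligosaccharyltransferase, had -0.28 ± 0.05 and -0.21 ± 0.05, and Sec63, a partner of the translocon, -0.18 ± 0.04 and -0.21 ± 0.04, all called lower.

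Of 17 genes of eIF2, its kinases and its exchange factor, 3 were called higher and 5 lower in the average, or 47.1%, beside 42% of all genes. Eif2ak2, which encodes the RNA-activated kinase PKR, was higher (0.26 ± 0.07 and 0.37 ± 0.07), while the PERK gene Eif2ak3 was lower, as described above. Impact, which encodes an inhibitor of the kinase activator GCN1, was higher (0.38 ± 0.07 and 0.30 ± 0.07). Eif2s2, the β subunit of eIF2, was called lower at 6 days (-0.32 ± 0.06) but not at 3 days (-0.11 ± 0.06). Of 22 further genes of ER-associated degradation, 1 was higher and 4 lower in the average, or 22.7%, beside the same 42%. The ligase gene Syvn1, whose product binds SEL1L, was higher at 3 days (0.22 ± 0.04) and not called at 6 days (0.06 ± 0.04).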
